A study of Homo sapiens with 8 samples.

Results

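The comparison set neuroblastoma lines that derive from SKNAS against MYCN-high neuroblastoma lines, over all 8 arrays of the series. The SKNAS-derived group held 4 arrays: the parental line SKNAS and SKNAS/shHIF1a, a SKNAS derivative with a short hairpin against HIF1A, each with 1 array after 48 h of 2.5 µM ciclopirox and 1 after 48 h of vehicle. Ciclopirox is an antifungal agent that binds iron. The MYCN-high group held the other 4 arrays, with NB1691 and SKNBE2 under the same 2 treatments. The arrays were assigned by the labelled cell line alone, and no measured value chose them. All 4 are established human lines, grown in RPMI medium with fetal calf serum. The labels give SKNAS the Myc status c-Myc and NB1691 and SKNBE2 the status N-Myc, and they also call SKNAS/shHIF1a N-Myc although it derives from SKNAS. Whether SKNAS/shHIF1a is 1 clone or a pool is not given in the labels. Each line has 1 array per treatment. Since SKNAS and SKNAS/shHIF1a share an origin, the comparison sets 1 SKNAS background, sampled in 2 lines, against 2 unrelated lines.

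Neuroblastoma arises from sympathetic neurons' precursors of the neural crest, and its cell lines fall along an axis of 2 identities. Cells of noradrenergic identity carry transcription factors of sympathetic neurons, make catecholamines and keep neuronal cytoskeleton and secretory granules. Cells of mesenchymal identity carry AP-1, PRRX1 and YAP/TAZ factors, lay down extracellular matrix, move more and display more antigen-presenting and innate immune genes. SKNAS lacks amplification of MYCN, the gene of N-Myc, whereas NB1691 and SKNBE2 are amplified lines.

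Levels are log2 values of the deposited normalised signal, on which 1 unit is 2-fold, and array medians lay between 3.47 and 3.52. The files give no detection calls, and near background below means within 1 unit of the array median or under it. Differences are the mean of the 4 SKNAS-derived arrays minus the mean of the 4 MYCN-high arrays, ± SE. In each pair of values given for a line the ciclopirox array stands before the vehicle array of the same line. HIF1A, the target of the hairpin, had 11.94 and 12.25 in SKNAS and 11.09 and 11.71 in SKNAS/shHIF1a, against 12.12 and 12.05 in NB1691 and 11.88 and 12.01 in SKNBE2. The SKNAS/shHIF1a arrays were the 2 lowest of the 8, and HIF1A signal was still high in them. MYC had 9.10 and 10.16 in SKNAS and 9.23 and 9.86 in SKNAS/shHIF1a, against 3.28 and 2.70 in NB1691 and 3.28 and 2.66 in SKNBE2. MYCN had 3.36 and 2.77 in SKNAS and 5.65 and 5.41 in SKNAS/shHIF1a, against 11.77 and 12.05 in NB1691 and 12.53 and 12.48 in SKNBE2. The MYC groups and the MYCN groups were far apart in every array, and SKNAS/shHIF1a carried more MYCN signal than its parent. The MYCN values are of the brightest of its 4 probe sets. All 4 had the same sign of group difference, and 1 reached an adjusted p under 0.05 in the group comparison described below. Across genes, arrays of 1 line correlated with a Pearson r of 0.965 to 0.986 and SKNAS with SKNAS/shHIF1a with 0.952 to 0.974, while NB1691 and SKNBE2 correlated with 0.898 to 0.909 and arrays of the 2 groups with 0.819 to 0.882. As a check of the labelled tumour type, 4 neuroblastoma genes were looked at after their values were seen, and the sympathetic and neuronal genes SCG2, CHGA, DDC and TUBB3 lay at 9.64 or above in all 8 arrays. Other genes of the same lists, such as TH, HAND1 and DBH, were low in the SKNAS-derived arrays and are described below, so the check is partial. These are bulk arrays, so fewer cells of a kind and less RNA per cell cannot be told apart.

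Of 14517 genes tested, 3604 (24.8%) differed between the groups in a linear model (limma) with treatment as a block, at a Benjamini-Hochberg adjusted p under 0.05, which is the meaning of called below. In the SKNAS-derived lines 1860 genes (12.8%) were called higher and 1744 (12%) lower. A gene is described as clear when it was called, its 2 groups of arrays did not overlap and the groups' means differed by at least 1 log2 unit. Clear genes numbered 2254 (15.5%), 1186 (8.17%) higher and 1068 (7.36%) lower, and 195 of the higher and 103 of the lower differed by at least 4 units. In 207 of the clear higher genes all MYCN-high arrays, and in 115 of the clear lower genes all SKNAS-derived arrays, lay below their array's median, where a fold can be understated. The median share of a clear gene's variation that lay between the groups was 83.3%, with 6.8% between the lines of a group, against 34.8% and 26.5% over all genes. Clear genes were chosen by their group difference, so the larger share between the groups follows from that choice. By line means, 917 genes differed at least 2-fold between SKNAS and SKNAS/shHIF1a and 2992 between NB1691 and SKNBE2, against 3492 between the groups.

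Arrays of 1 line are not independent samples, and separate cultures per array are not stated. The p-values set the group difference against the spread among arrays of a group once treatment is fitted. That spread holds differences between the lines of a group and between their responses to treatment. With 1 array per line and treatment, technical noise cannot be separated from it. With the line as a random block 1775 genes (12.2%) were called, and with each line averaged to 1 value, 2 lines against 2, 534 (3.68%) were called. Of the clear genes 1601 (71.0%) were called with the random block and 528 (23.4%) on line means. Counts for the gene lists are given with both settings in most cases. Of 152 called genes among those named by the naming rule, 97 were called with each array and each line left out, and for these 152 a call that ended without a line is stated where the gene appears. Leaving out single arrays kept 121 of the 152, and each gene lost then was also lost without a line. Because SKNAS and SKNAS/shHIF1a share an origin, no such fit leaves that background out, and dependence on it was not tested. The fit on line means also counts them as 2 lines.

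**Figure D1:**
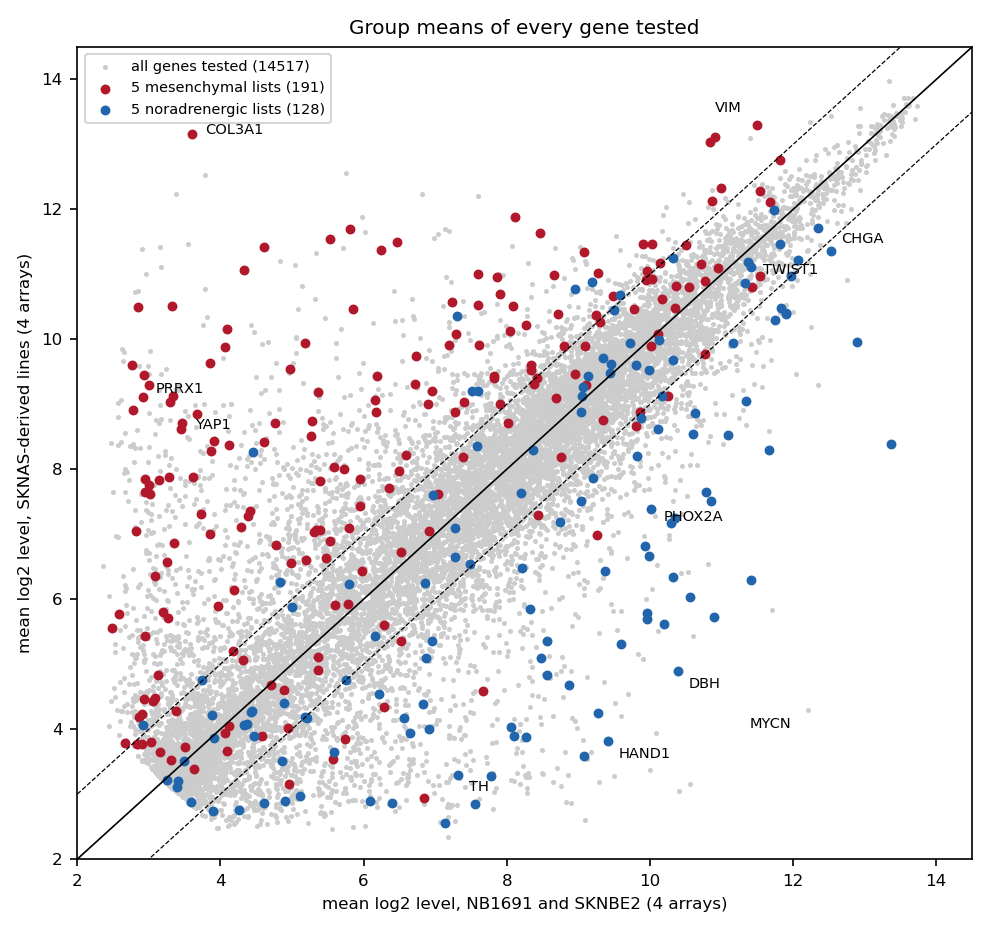
Mean log2 level of each gene tested in the SKNAS-derived arrays (vertical axis) against the MYCN-high arrays (horizontal axis), 4 arrays each, with 191 genes of the mesenchymal lists in red and 128 genes of the noradrenergic lists in blue. The solid line marks equal levels and the dashed lines a difference of 1 log2 unit; red points reach 9.56 above equality at COL3A1, and MYCN lies 7.91 below it.

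Among the 15 clear genes with the largest differences upwards, COL3A1 came first. COL3A1, the chain of fibrillar type III collagen, had 12.97 and 12.99 in SKNAS and 13.33 and 13.37 in SKNAS/shHIF1a, against 3.99 and 3.83 in NB1691 and 3.25 and 3.35 in SKNBE2. The difference was 9.56 ± 0.22 (SE), with an adjusted p of 3.59e-06. The 4 SKNAS-derived arrays were near the top of the scale and the 4 MYCN-high arrays near background. PTX3, a secreted pentraxin of innate immunity, was higher by 8.85 ± 0.52, CCL2, the monocyte chemoattractant, by 8.74 ± 0.51, and TDO2, a tryptophan-degrading enzyme, by 8.48 ± 0.40. The antiviral membrane protein IFITM3 was higher by 8.26 ± 0.25, the protease inhibitor TFPI2 by 8.04 ± 0.43, the melanosome enzyme TYRP1 by 7.94 ± 0.42, complement factor CFI by 7.93 ± 0.18, the surface protein TM4SF1 by 7.91 ± 0.23 and the cancer-testis antigen CTAG2 by 7.90 ± 0.12. ANXA1 (annexin A1), the coagulation inhibitor TFPI, the coactivator WWTR1, the RNA-decay factor ZFP36L1 and the chromatin protein HMGA2 followed at 7.03 to 7.64. HMGA2 was at 2.55 to 2.76 in the MYCN-high arrays, and 3 of its 5 probe sets were called.

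In the other direction stood ENPP2 (autotaxin, which makes lysophosphatidic acid), with 3.16 and 2.94 in SKNAS and 3.08 and 3.46 in SKNAS/shHIF1a, against 9.88 and 10.88 in NB1691 and 10.89 and 10.59 in SKNBE2. The difference was -7.40 ± 0.25, with an adjusted p of 8.96e-06. LIN28B, which blocks maturation of the let-7 microRNAs, had 2.91 and 3.62 in SKNAS and 3.05 and 2.59 in SKNAS/shHIF1a, against 9.62 and 9.79 in NB1691 and 10.97 and 11.27 in SKNBE2 (-7.37 ± 0.44, adjusted p 9.36e-05). PAX5, a transcription factor best known from B cells, differed by -6.50 ± 0.32, although 1 of its 2 probe sets ran the other way. SCN3B, a sodium channel subunit, differed by -6.10 ± 0.23, KCNK3, a background potassium channel, by -5.95 ± 0.21, and ST8SIA2, the enzyme that adds polysialic acid to NCAM1, by -6.04 ± 0.17. CTNNA2, the neuronal alpha-catenin, MYT1, a zinc finger factor of neural progenitors, and NSG2, a neuronal endosome protein, differed by -5.87 to -5.57. TCEAL7, NUDT11, FABP6 and RAB33A completed the 15 lowest clear genes together with MYCN and HAND1, with differences of -6.62, -6.21, -6.14 and -5.64.

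In the SKNAS-derived lines more genes of the noradrenergic lists were called lower than higher, and more genes of the mesenchymal lists higher than lower. The lists were written with earlier results of these data known. Their shares are therefore descriptions, and part of the distance from all genes can follow from that choice. Of 130 noradrenergic genes on the array, 128 passed the level filter, and 52 of these (40.6%) were called lower and 5 (3.9%) higher, against 12% and 12.8% of all genes. Their median difference was -1.28, against -0.04 over all genes. With the line as a random block 39 were lower and 3 higher, and on line means 18 and 3. Of 204 mesenchymal genes on the array, 191 passed the filter, and 101 (52.9%) were called higher and 7 (3.7%) lower, with a median difference of 1.61. With the random block 77 were higher and 4 lower, and on line means 42 and 2. In 13 noradrenergic and 30 mesenchymal genes tested, 1 group alone had a mean below the filter level, so that these genes passed through the group in which they were high. Of those, 4 and 20 were called. Over all the gene lists, 95 of 603 genes tested passed in this way, and 53 of these were called. The counts given below include such genes in the class I, innate and cytokine lists and in other lists as well. PRRX1, TWIST2, VCAM1, THBS1, MMP1, WNT5A, ANXA1, MYOF, CRIM1, PHLDA2, HMGA2 and MYC had MYCN-high means below the filter level. LIN28B, ROBO2, LRRTM2, SIX3, LMO3 and LAMA4 had SKNAS-derived means below it. These genes are examples, and the point is repeated below for only part of the genes it concerns.

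**Figure D2:**
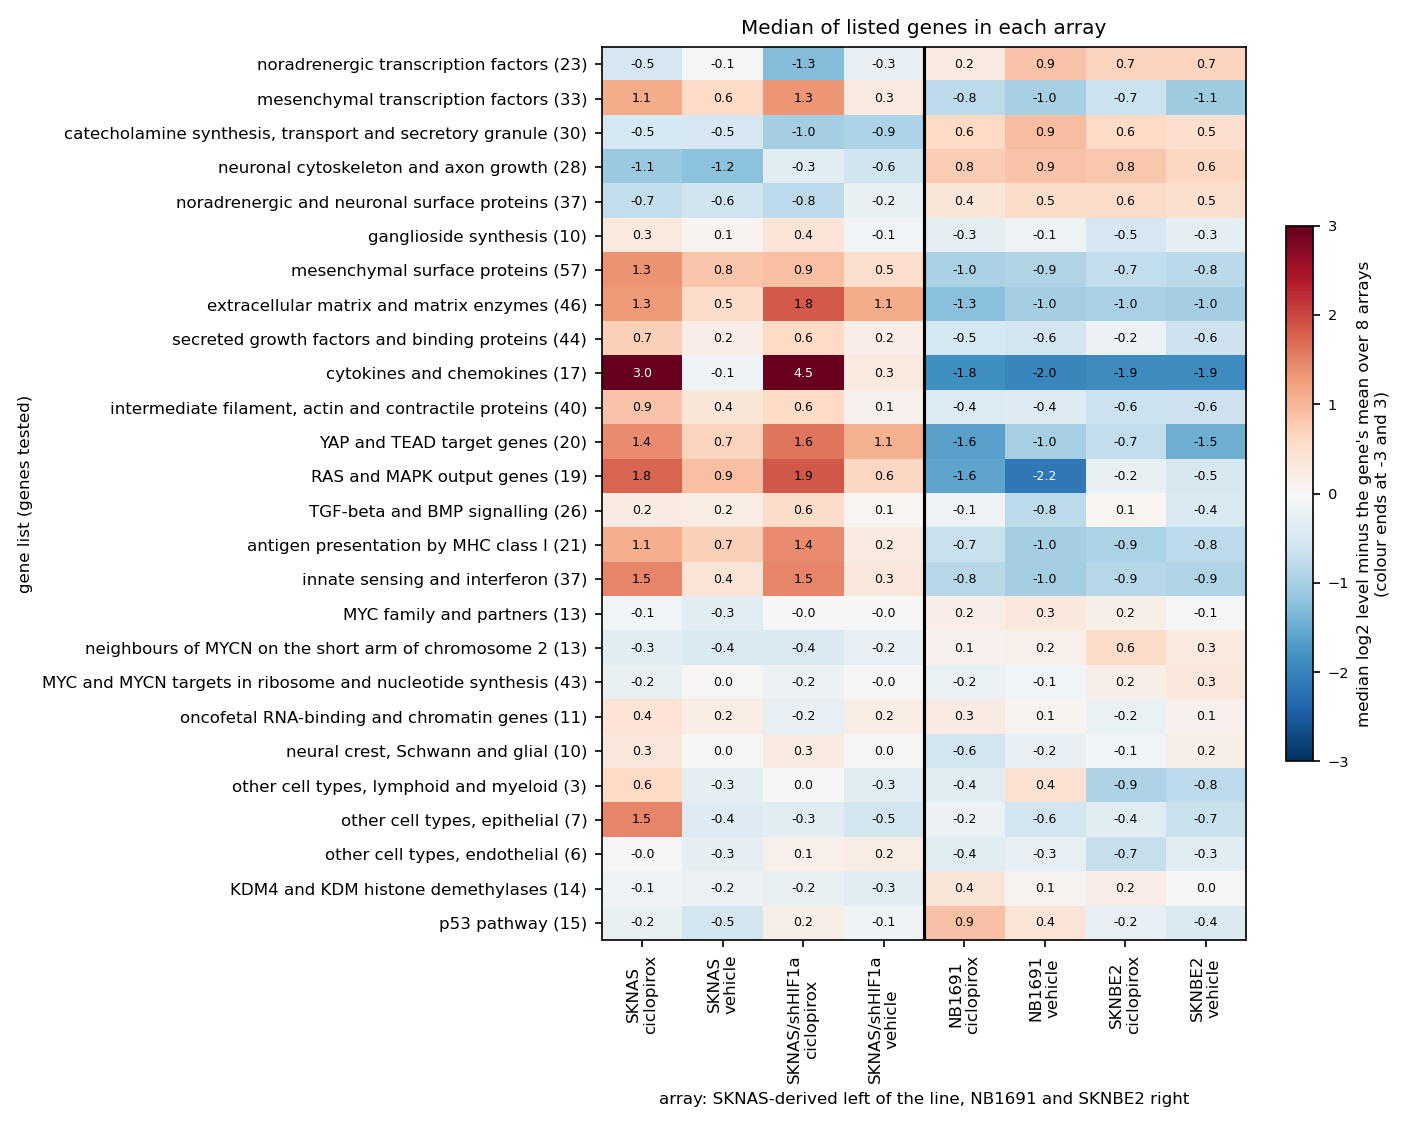
Median over each gene list (rows, with the number of genes tested) of the log2 level minus the gene's mean over the 8 arrays, for each array (columns), the SKNAS-derived arrays left of the black line and the MYCN-high arrays right of it. The noradrenergic transcription factor, granule, axon growth and neuronal surface lists run from -1.30 to -0.06 on the left and from 0.25 to 0.93 on the right, and cytokines and chemokines reach 2.98 and 4.48 in the SKNAS-derived ciclopirox arrays.

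Among 23 noradrenergic transcription factors tested, 9 were called lower, all clear, and 0 higher in limma, against 12% and 12.8% of all genes. At an unadjusted p under 0.05, 14 were lower and 1 higher. With the random block 6 were lower, and on line means 4. PHOX2A, a homeodomain factor of noradrenergic neurons, had 7.49 and 7.81 in SKNAS and 6.93 and 7.34 in SKNAS/shHIF1a, against 9.97 and 10.18 in NB1691 and 10.00 and 9.94 in SKNBE2. The difference was -2.63 ± 0.19 (adjusted p 0.000216). HAND1, a basic helix-loop-helix factor, had 3.63 and 4.24 in SKNAS and 3.61 and 3.81 in SKNAS/shHIF1a, against 9.0 and 9.14 in NB1691 and 9.73 and 9.80 in SKNBE2 (-5.60 ± 0.24, adjusted p 1.83e-05), and was close to background in the first group. ISL1, a LIM-homeodomain factor of sympathetic neurons, had 7.5 and 8.58 in SKNAS and 6.33 and 8.17 in SKNAS/shHIF1a, against 10.49 and 11.08 in NB1691 and 10.72 and 10.84 in SKNBE2 (-3.13 ± 0.34, adjusted p 0.00117). ZNF536, a zinc finger repressor, differed by -4.51 ± 0.27 and was near background in SKNAS-derived arrays. These 4 calls held with each array and line left out.

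The other noradrenergic factors differed less evenly. GATA3, which is needed for sympathetic neuron development, stayed high in both groups, with 10.44 and 11.10 in SKNAS and 9.74 and 10.68 in SKNAS/shHIF1a, against 12.02 and 12.07 in NB1691 and 11.69 and 11.57 in SKNBE2 (-1.35 ± 0.27). The GATA3 call ended without SKNAS (adjusted p 0.0513) and without SKNAS/shHIF1a (0.0876). GATA2 had 9.35 and 9.75 in SKNAS and 7.43 and 7.67 in SKNAS/shHIF1a, against 10.21 and 10.78 in NB1691 and 10.80 and 10.62 in SKNBE2 (-2.05 ± 0.56). SKNAS lay close to the MYCN-high lines and SKNAS/shHIF1a lower. The GATA2 call ended without SKNAS/shHIF1a (0.0639), NB1691 (0.0883) or SKNBE2 (0.107). SIX3, an eye and forebrain factor, and LMO3, a LIM-only cofactor in neuroblastoma, were near background in all SKNAS-derived arrays. In the MYCN-high lines SIX3 had 4.80 and 5.11 in NB1691 and 7.99 and 7.71 in SKNBE2 and LMO3 had 3.97 and 5.91 in NB1691 and 7.04 and 7.45 in SKNBE2. Their calls ended without SKNAS (0.132 and 0.125) and without SKNAS/shHIF1a (0.146 and 0.121). TFAP2B, a neural crest factor, had 7.96 and 9.62 in SKNAS and 2.65 and 2.65 in SKNAS/shHIF1a, against 10.33 and 11.53 in NB1691 and 10.73 and 10.99 in SKNBE2. SKNAS/shHIF1a alone lay near background, and the group difference was not called (-5.18 ± 1.67, adjusted p 0.0617). HAND2 had 4.23 and 4.84 in SKNAS and 3.99 and 4.56 in SKNAS/shHIF1a, against 4.63 and 5.30 in NB1691 and 4.66 and 4.94 in SKNBE2. It was not called (-0.48 ± 0.15, adjusted p 0.0552). TBX2, with 9.01 and 9.21 in SKNAS and 9.63 and 9.21 in SKNAS/shHIF1a, against 9.28 and 8.51 in NB1691 and 9.5 and 8.96 in SKNBE2, overlapped between the groups (0.20 ± 0.21, not called, of this sign on 2 of 3 probe sets, and of the other sign on the ciclopirox arrays alone).

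**Figure D3:**
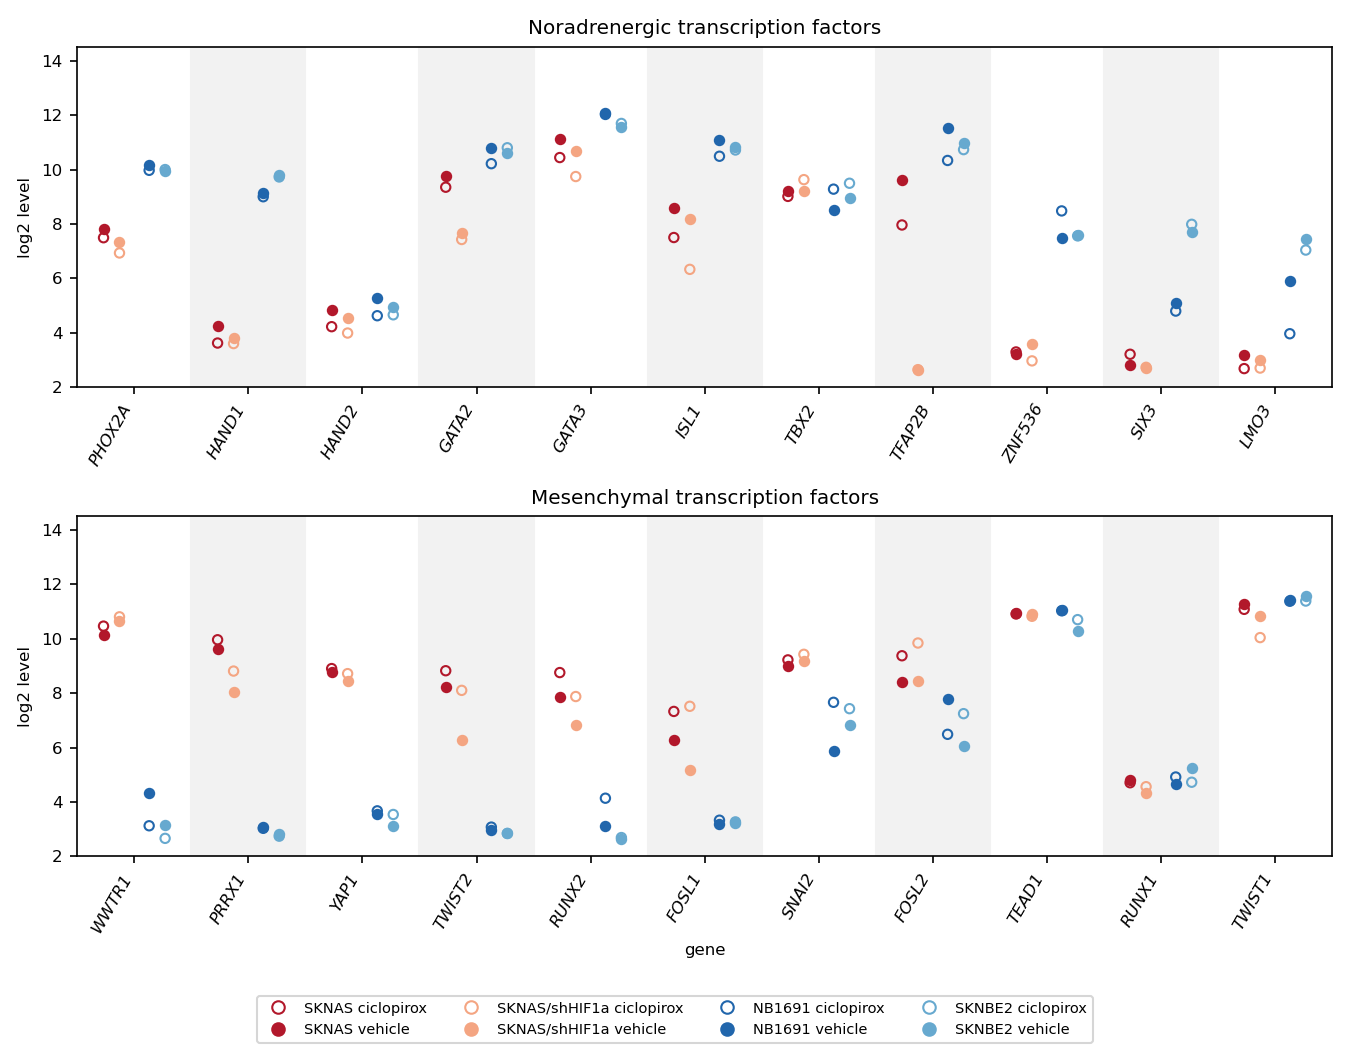
Log2 level (vertical axis) of 11 noradrenergic and 11 mesenchymal transcription factor genes in every array, with the SKNAS-derived lines in reds to the left and the MYCN-high lines in blues to the right of each gene, open circles for ciclopirox and filled for vehicle. HAND1, ISL1, PHOX2A and ZNF536 separate the groups one way and WWTR1, PRRX1, YAP1 and TWIST2 the other, while TBX2, TEAD1 and RUNX1 do not, and TFAP2B is low in SKNAS/shHIF1a alone.

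Catecholamine synthesis, transport and granule genes followed, with 15 of 30 tested called lower and 1 higher, against 12% and 12.8% of all genes. The median difference was -1.58 (11 and 0 with the random block, 6 and 1 on line means). DBH, which turns dopamine into noradrenaline, had 4.37 and 4.79 in SKNAS and 4.67 and 5.72 in SKNAS/shHIF1a, against 10.49 and 10.90 in NB1691 and 10.24 and 9.97 in SKNBE2 (-5.51 ± 0.31, adjusted p 6.66e-05). TH, the rate-limiting enzyme of catecholamine synthesis, had 3.17 and 3.15 in SKNAS and 3.28 and 3.59 in SKNAS/shHIF1a, against 6.32 and 7.16 in NB1691 and 7.82 and 7.99 in SKNBE2 (-4.02 ± 0.36, adjusted p 0.000544). CHGB, a granule protein, had 7.29 and 7.71 in SKNAS and 4.58 and 5.63 in SKNAS/shHIF1a, against 10.89 and 12.41 in NB1691 and 11.28 and 11.08 in SKNBE2 (-5.11 ± 0.71, adjusted p 0.003). All 4 SKNAS-derived arrays lay below all 4 others for each of these genes, and their calls held with each array and line left out.

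The vesicular monoamine transporters differed in size between the MYCN-high lines. SLC18A1 had 4.50 and 4.60 in SKNAS and 3.15 and 3.26 in SKNAS/shHIF1a, against 6.45 and 6.41 in NB1691 and 10.16 and 10.07 in SKNBE2 (-4.40 ± 1.05). SLC18A2 had 4.47 and 4.66 in SKNAS and 4.72 and 4.87 in SKNAS/shHIF1a, against 10.62 and 10.22 in NB1691 and 7.44 and 7.23 in SKNBE2 (-4.20 ± 0.84). The first was high in SKNBE2 and the second in NB1691, and both calls ended without SKNAS (0.111 and 0.121) or SKNAS/shHIF1a (0.19 and 0.1). DDC, the decarboxylase that makes dopamine, kept a high level in all arrays, with 10.61 and 11.43 in SKNAS and 9.64 and 9.95 in SKNAS/shHIF1a, against 11.62 and 12.03 in NB1691 and 12.07 and 11.87 in SKNBE2 (-1.49 ± 0.37). CHGA, a granule protein used as a tumour marker, had 10.72 and 11.28 in SKNAS and 10.88 and 12.55 in SKNAS/shHIF1a, against 12.10 and 13.15 in NB1691 and 12.46 and 12.42 in SKNBE2 (-1.17 ± 0.33), and here the groups overlapped. The DDC call ended without SKNAS/shHIF1a (0.119), NB1691 (0.0713) or SKNBE2 (0.0763), and the CHGA call without SKNAS (0.271) or NB1691 (0.12). The 1 gene of the list called higher was SYT4, a synaptotagmin, with 10.25 and 11.20 in SKNAS and 10.16 and 11.49 in SKNAS/shHIF1a, against 9.28 and 8.91 in NB1691 and 9.27 and 8.35 in SKNBE2 (1.82 ± 0.37). Its call ended without SKNAS (0.0966) or SKNAS/shHIF1a (0.07). NPY, neuropeptide Y, named after its values were seen, had 11.10 and 11.32 in SKNAS and 3.36 and 3.24 in SKNAS/shHIF1a, against 11.83 and 12.27 in NB1691 and 8.00 and 9.33 in SKNBE2. It was near background in SKNAS/shHIF1a alone.

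Neuronal cytoskeleton and axon growth genes had the lowest median of the noradrenergic lists, -1.98. Called lower were 15 of 28 and higher 1, against 12% and 12.8% of all genes. The counts were 12 and 1 with the random block and 4 and 1 on line means. ELAVL3, a neuronal RNA-binding protein, had 3.13 and 2.57 in SKNAS and 5.49 and 5.79 in SKNAS/shHIF1a, against 9.37 and 9.47 in NB1691 and 9.25 and 8.99 in SKNBE2 (-5.02 ± 0.77, adjusted p 0.00458). CRMP1, a mediator of semaphorin signals, had 4.11 and 3.95 in SKNAS and 7.24 and 7.20 in SKNAS/shHIF1a, against 10.22 and 10.31 in NB1691 and 10.15 and 10.14 in SKNBE2 (-4.58 ± 0.86, adjusted p 0.00992), and KIF1A, a motor of synaptic vesicle precursors, differed by -4.21 ± 0.71 (adjusted p 0.00673). SKNAS/shHIF1a was above SKNAS for all 3, by 2.79, 3.19 and 2.50 units of the line means, and stayed below the MYCN-high arrays. DCX, the doublecortin of migrating neurons, had 3.93 and 3.67 in SKNAS and 8.28 and 6.89 in SKNAS/shHIF1a, against 8.79 and 9.40 in NB1691 and 11.08 and 10.56 in SKNBE2 (-4.27 ± 1.15). The DCX call ended without SKNAS (0.153) or SKNBE2 (0.135). For DCLK1, a doublecortin-like kinase and the only gene of the list called higher, 1 of 4 probe sets gave that direction (1.69 ± 0.19), and the mean of its probe sets gave -0.23.

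Of 37 neuronal surface genes, 12 were called lower and 1 higher, against 12% and 12.8% of all genes. Their median was -1.05 (10 and 0 with the random block, 4 and 0 on line means). UNC5A, a netrin receptor, had 3.69 and 3.86 in SKNAS and 3.46 and 3.34 in SKNAS/shHIF1a, against 8.48 and 8.84 in NB1691 and 9.88 and 9.13 in SKNBE2 (-5.49 ± 0.31, adjusted p 7.4e-05). ROBO2, a Slit receptor, had 2.47 and 2.60 in SKNAS and 2.42 and 2.70 in SKNAS/shHIF1a, against 6.09 and 7.56 in NB1691 and 7.5 and 7.43 in SKNBE2 (-4.60 ± 0.31, adjusted p 0.000145). Its paralogue ROBO1 was higher by 1.69 ± 0.37. The ROBO1 call ended without SKNAS (0.0783) or SKNAS/shHIF1a (0.145). DLK1, a Notch-family membrane protein of chromaffin and progenitor cells, had 8.40 and 6.62 in SKNAS and 9.67 and 8.88 in SKNAS/shHIF1a, against 13.49 and 13.37 in NB1691 and 13.31 and 13.33 in SKNBE2 (-4.98 ± 0.55, adjusted p 0.00131). LRRTM2, a synaptic adhesion protein, differed by -4.72 ± 0.29.

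ALK, the receptor kinase that is mutated in part of neuroblastomas, had 3.36 and 3.64 in SKNAS and 3.97 and 4.81 in SKNAS/shHIF1a, against 6.80 and 6.54 in NB1691 and 6.47 and 6.79 in SKNBE2 (-2.71 ± 0.30, adjusted p 0.0013). NCAM1, the neural cell adhesion molecule, had 6.76 and 6.84 in SKNAS and 7.73 and 8.73 in SKNAS/shHIF1a, against 11.08 and 10.71 in NB1691 and 11.03 and 10.58 in SKNBE2 (-3.34 ± 0.45, adjusted p 0.00284). L1CAM had 9.25 and 8.20 in SKNAS and 9.64 and 8.35 in SKNAS/shHIF1a, against 10.58 and 10.31 in NB1691 and 11 and 10.63 in SKNBE2 (-1.77 ± 0.23, adjusted p 0.00246). The groups did not overlap for any of the 3. RET, the receptor of glial-derived neurotrophic factors, had 10.25 and 11.19 in SKNAS and 10.48 and 10.79 in SKNAS/shHIF1a, against 7.84 and 9.47 in NB1691 and 10.71 and 10.30 in SKNBE2. It was not called (1.10 ± 0.58, adjusted p 0.209).

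In ganglioside synthesis, which supplies the surface antigen GD2, 2 of 10 genes were called higher and 1 lower, against 12.8% and 12% of all genes. No departure from those shares is read from so few genes. The median was 0.39, and 2 and 0 were called with the random block, 1 and 0 on line means. ST3GAL1, a sialyltransferase, and B4GALT6, which makes lactosylceramide, were higher by 3.82 ± 0.48 and 3.06 ± 0.15. ST8SIA1, the GD3 synthase, had 3.11 and 3.03 in SKNAS and 3.80 and 4.11 in SKNAS/shHIF1a, against 3.90 and 4.85 in NB1691 and 5.32 and 5.39 in SKNBE2 (-1.36 ± 0.40). The groups overlapped, and the call ended without SKNAS (0.291), SKNAS/shHIF1a (0.0849) or SKNBE2 (0.158). B4GALNT1, which makes GD2 from GD3, had 5.84 and 5.90 in SKNAS and 5.70 and 5.93 in SKNAS/shHIF1a, against 9.66 and 10.60 in NB1691 and 6.23 and 6.81 in SKNBE2. NB1691 stood apart from the other 3 lines, and the difference was not called (-2.48 ± 0.98, adjusted p 0.109).

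Among 33 mesenchymal transcription factors, 20 were called higher, all clear, and 1 lower, against 12.8% and 12% of all genes. Their median was 1.73 (15 and 0 with the random block, 14 and 0 on line means). WWTR1, the TAZ coactivator of the Hippo pathway, had 10.46 and 10.15 in SKNAS and 10.80 and 10.64 in SKNAS/shHIF1a, against 3.13 and 4.34 in NB1691 and 2.66 and 3.15 in SKNBE2 (7.19 ± 0.35, adjusted p 3.72e-05). YAP1 had 8.90 and 8.78 in SKNAS and 8.71 and 8.45 in SKNAS/shHIF1a, against 3.67 and 3.55 in NB1691 and 3.54 and 3.12 in SKNBE2 (5.24 ± 0.16, adjusted p 5.67e-06). PRRX1, a homeobox factor of mesenchyme, had 9.96 and 9.64 in SKNAS and 8.81 and 8.04 in SKNAS/shHIF1a, against 3.03 and 3.09 in NB1691 and 2.74 and 2.81 in SKNBE2 (6.19 ± 0.41, adjusted p 0.000145). The MYCN-high arrays were at or near background for these genes. TWIST2, a basic helix-loop-helix factor, was higher by 4.91 ± 0.46. RUNX2, the osteoblast factor, was higher by 4.69 ± 0.41 on 1 of its 2 probe sets, and the other had the opposite sign.

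FOSL1, an AP-1 subunit, had 7.33 and 6.28 in SKNAS and 7.51 and 5.18 in SKNAS/shHIF1a, against 3.33 and 3.19 in NB1691 and 3.27 and 3.23 in SKNBE2 (3.32 ± 0.38, adjusted p 0.00148). SNAI2, a repressor of epithelial genes, had 9.22 and 8.99 in SKNAS and 9.42 and 9.18 in SKNAS/shHIF1a, against 7.66 and 5.88 in NB1691 and 7.43 and 6.84 in SKNBE2 (2.25 ± 0.29, adjusted p 0.00215). FOSL2, another AP-1 subunit, had 9.37 and 8.39 in SKNAS and 9.84 and 8.43 in SKNAS/shHIF1a, against 6.49 and 7.78 in NB1691 and 7.24 and 6.07 in SKNBE2 (2.12 ± 0.45). The FOSL2 call ended without SKNAS (0.109), SKNAS/shHIF1a (0.111) or SKNBE2 (0.0538). TWIST1 was high everywhere, with 11.08 and 11.29 in SKNAS and 10.04 and 10.84 in SKNAS/shHIF1a, against 11.37 and 11.40 in NB1691 and 11.38 and 11.55 in SKNBE2 (-0.62 ± 0.25, adjusted p 0.121). TEAD1, the DNA-binding partner of YAP1, lay at 10.82 to 10.93 in SKNAS-derived arrays, against 10.29 to 11.07 in MYCN-high arrays (0.12 ± 0.20, not called, and of the other sign without SKNBE2). RUNX1 differed by -0.28 ± 0.19 on its brightest probe set, with 2 of 5 probe sets of that sign, and was not called. ZEB1, an epithelial-gene repressor and the 1 factor of the list called lower, had 9.56 and 9.64 in SKNAS and 9.65 and 10.25 in SKNAS/shHIF1a, against 11.29 and 10.85 in NB1691 and 10.74 and 10.20 in SKNBE2 (-1.0 ± 0.28). Its groups overlapped, and it was not called with the random block.

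Motifs were searched in the RefSeq promoters (GRCh38.p14, 250 bases before to 50 after the gene's start, both strands) of the clear genes of all 26 lists. These sets reach beyond the noradrenergic and mesenchymal lists. TGANTCA is a loose form of the AP-1 site that allows any base at its centre, where C or G is usual. It was in 15 of 143 promoters of clear higher genes (10.5%) and in 2 of 49 of clear lower genes (4.1%). The share was 4.7% over all genes tested that had a promoter in the table and 7.8% of all promoters there. TAATTA, the core bound by many homeodomain factors, was in 4.2% and 6.1%, against 2.2% and 5.0%. The MYC and MAX E-box CACGTG was in 7.0% and 8.2%, against 10.0% and 7.4%, and the TEAD site CATTCCA in 3.5% and 2.0%, against 2.4% and 4.2%. None of the 4 motifs contains another, though matches can share bases, and a match is a description of letters, not of binding. The table held a promoter for 143 of 185 clear higher and 49 of 72 clear lower listed genes. The 250 bases before the start are shown for 2 clear higher genes with a TGANTCA match and 2 clear lower genes with a homeodomain match. They run 5′ to 3′ on the gene's strand, with the match in capitals. The central base of TGANTCA is C in CXCL8 and A in PDGFRA. That of CXCL8 is chr4:73740319-73740568 on the plus strand, with the match beginning 137 bases before the start, and that of PDGFRA is chr4:54229043-54229292 on the plus strand, with the match 32 bases before it. That of DCX is chrX:111412193-111412442 on the minus strand, with the match 134 bases before the start, and that of LMO3 is chr12:16608215-16608464 on the minus strand, with matches 232 and 97 bases before it.
CXCL8: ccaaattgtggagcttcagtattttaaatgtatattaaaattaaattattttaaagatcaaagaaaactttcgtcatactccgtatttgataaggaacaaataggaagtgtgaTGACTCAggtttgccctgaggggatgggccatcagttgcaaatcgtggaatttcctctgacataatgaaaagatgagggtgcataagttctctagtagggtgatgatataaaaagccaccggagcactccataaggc
PDGFRA: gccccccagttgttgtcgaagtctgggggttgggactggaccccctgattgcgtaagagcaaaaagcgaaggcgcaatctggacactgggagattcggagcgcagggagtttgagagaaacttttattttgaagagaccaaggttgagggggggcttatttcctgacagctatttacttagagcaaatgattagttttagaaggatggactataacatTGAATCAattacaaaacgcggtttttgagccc
DCX: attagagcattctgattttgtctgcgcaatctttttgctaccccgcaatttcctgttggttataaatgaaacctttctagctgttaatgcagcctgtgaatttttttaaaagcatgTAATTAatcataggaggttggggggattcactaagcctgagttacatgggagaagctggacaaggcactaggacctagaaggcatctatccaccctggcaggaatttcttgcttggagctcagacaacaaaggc
LMO3: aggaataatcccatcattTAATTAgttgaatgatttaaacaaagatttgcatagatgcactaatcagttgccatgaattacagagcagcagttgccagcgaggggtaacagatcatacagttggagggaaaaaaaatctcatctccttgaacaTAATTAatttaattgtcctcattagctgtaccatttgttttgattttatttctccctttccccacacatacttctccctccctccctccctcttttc

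Mesenchymal surface genes were called higher in 30 of 57 cases and lower in 1, against 12.8% and 12% of all genes. Their median was 1.94 (24 and 1 with the random block, 10 and 0 on line means). PDGFRA, a platelet-derived growth factor receptor whose promoter is printed above, had 11.54 and 11.50 in SKNAS and 11.53 and 11.14 in SKNAS/shHIF1a, against 4.15 and 5.71 in NB1691 and 4.71 and 3.88 in SKNBE2 (6.81 ± 0.40, adjusted p 8.55e-05). OSMR, the oncostatin M receptor, had 11.72 and 10.62 in SKNAS and 11.51 and 10.42 in SKNAS/shHIF1a, against 5.43 and 6.03 in NB1691 and 2.75 and 3.10 in SKNBE2 (6.74 ± 0.82, adjusted p 0.00181), with NB1691 above SKNBE2. VCAM1, a leukocyte adhesion molecule, had 9.09 and 6.81 in SKNAS and 10.62 and 9.12 in SKNAS/shHIF1a, against 2.93 and 2.63 in NB1691 and 2.67 and 2.88 in SKNBE2 (6.14 ± 0.64, adjusted p 0.00105). ITGA2, a collagen-binding integrin chain, was higher by 6.07 ± 0.79 (adjusted p 0.00237).

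Some receptors often used as mesenchymal markers had overlapping groups. CD44, the hyaluronan receptor, had 11.92 and 10.85 in SKNAS and 10.90 and 8.64 in SKNAS/shHIF1a, against 7.93 and 8.89 in NB1691 and 5.52 and 6.6 in SKNBE2 (3.34 ± 0.94). Its groups overlapped, and the call ended without SKNAS (0.267), SKNAS/shHIF1a (0.0778) or SKNBE2 (0.114). AXL, a receptor kinase, had 8.47 and 7.41 in SKNAS and 4.31 and 2.99 in SKNAS/shHIF1a, against 2.69 and 2.74 in NB1691 and 4.43 and 2.94 in SKNBE2. The level was high in SKNAS and not in SKNAS/shHIF1a (2.60 ± 1.20, adjusted p 0.16). EGFR, the receptor of epidermal growth factor, had 9.86 and 9.17 in SKNAS and 10.38 and 8.19 in SKNAS/shHIF1a, against 8.10 and 8.63 in NB1691 and 8.84 and 8.11 in SKNBE2 (0.98 ± 0.39, adjusted p 0.11, 5 of 8 probe sets of that sign). THY1, a glycoprotein of both fibroblasts and neurons, ran the other way and was lower, with 7.92 and 7.46 in SKNAS and 6.41 and 6.16 in SKNAS/shHIF1a, against 9.04 and 9.06 in NB1691 and 9.39 and 9.55 in SKNBE2 (-2.28 ± 0.42, adjusted p 0.00917).

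**Figure D4:**
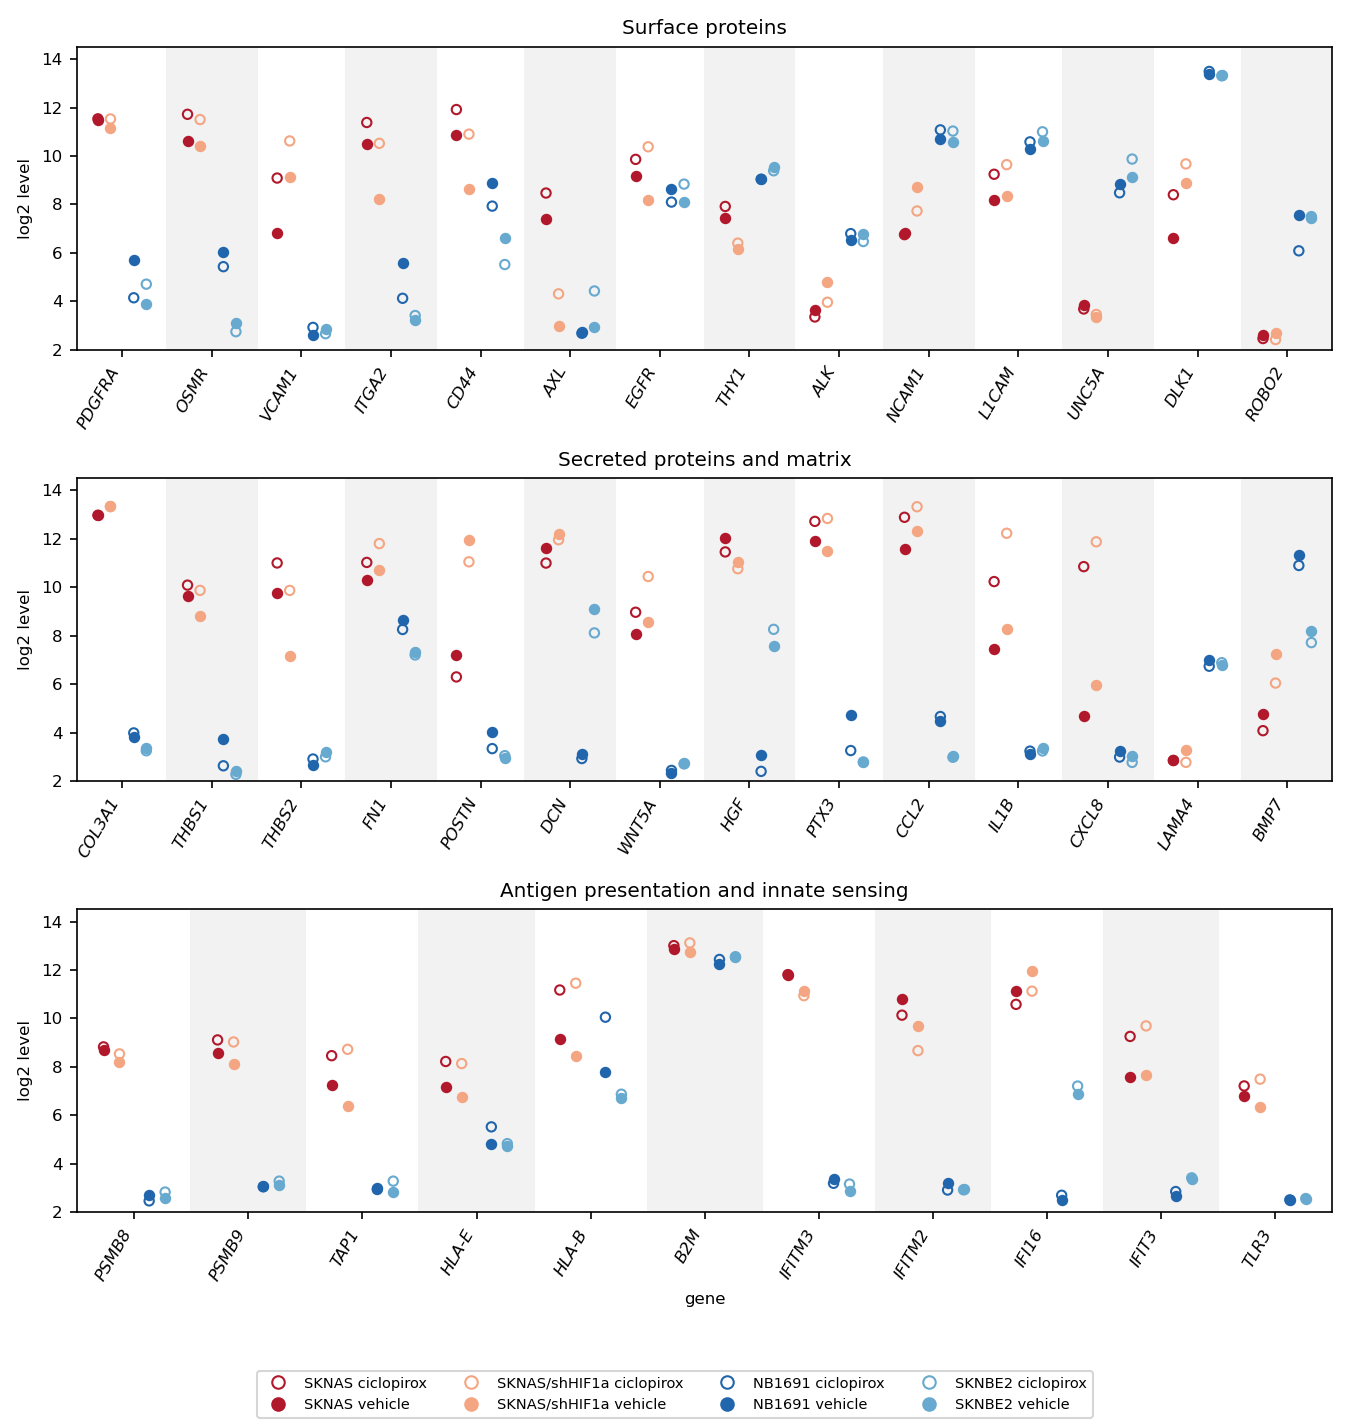
Log2 level (vertical axis) of surface, secreted and antigen presentation genes in every array, with SKNAS-derived lines in reds to the left and MYCN-high lines in blues to the right of each gene, open circles for ciclopirox and filled for vehicle. COL3A1 is at 12.97 or above in every SKNAS-derived array and at 3.99 or below in every MYCN-high one, CXCL8 and IL1B lie higher in the ciclopirox than in the vehicle array of both SKNAS-derived lines, and AXL is high in SKNAS but not in SKNAS/shHIF1a.

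Extracellular matrix was the list with the highest median among the 5 mesenchymal ones, 2.86. Called higher were 27 of 46 and lower 2, against 12.8% and 12% of all genes. The counts were 21 and 1 with the random block and 10 and 1 on line means. A further 6 genes on the array lay below the filter. THBS1, a thrombospondin that activates latent TGF-beta, had 10.09 and 9.65 in SKNAS and 9.87 and 8.82 in SKNAS/shHIF1a, against 2.63 and 3.73 in NB1691 and 2.28 and 2.40 in SKNBE2 (6.85 ± 0.42, adjusted p 9.87e-05). THBS2 was higher by 6.51 ± 0.67 (adjusted p 0.000947) and MMP1, the interstitial collagenase, by 6.30 ± 0.78 (adjusted p 0.00195), with MMP1 at 9.98 and 7.57 in SKNAS and 12.08 and 7.58 in SKNAS/shHIF1a, against 3.34 and 3.19 in NB1691 and 2.72 and 2.77 in SKNBE2. FN1, fibronectin, was measured in all arrays, with 11.02 and 10.30 in SKNAS and 11.80 and 10.70 in SKNAS/shHIF1a, against 8.26 and 8.66 in NB1691 and 7.21 and 7.34 in SKNBE2 (3.09 ± 0.44, adjusted p 0.00333).

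Other matrix genes depended on the line. POSTN, periostin, had 6.30 and 7.22 in SKNAS and 11.05 and 11.96 in SKNAS/shHIF1a, against 3.34 and 4.01 in NB1691 and 3.05 and 2.96 in SKNBE2 (5.79 ± 1.30). SKNAS/shHIF1a lay well above its parent. The POSTN call ended without NB1691 (0.0539) or SKNBE2 (0.0673). DCN, decorin, had 11 and 11.62 in SKNAS and 11.96 and 12.20 in SKNAS/shHIF1a, against 2.93 and 3.10 in NB1691 and 8.12 and 9.10 in SKNBE2 (5.88 ± 1.52). SERPINH1, the collagen chaperone HSP47, had 9.53 and 9.45 in SKNAS and 9.56 and 9.67 in SKNAS/shHIF1a, against 2.53 and 2.58 in NB1691 and 7.63 and 7.13 in SKNBE2 (4.58 ± 1.30). Both were near background in NB1691 and not in SKNBE2, and the calls ended without SKNAS (0.165 and 0.216) or SKNAS/shHIF1a (0.199 and 0.217). LAMA4, a laminin chain of vessel and nerve basement membranes, was lower, with 2.85 and 2.85 in SKNAS and 2.77 and 3.29 in SKNAS/shHIF1a, against 6.74 and 6.98 in NB1691 and 6.89 and 6.80 in SKNBE2 (-3.91 ± 0.15, adjusted p 1.24e-05). COL1A2, the second chain of type I collagen, named after its values were seen, was near background in all arrays except SKNAS/shHIF1a under vehicle, with 4.58, and was not called, while COL1A1, its partner chain and also named afterwards, had 12.28 and 12.46 in SKNAS and 10.58 and 10.17 in SKNAS/shHIF1a, against 7.54 and 8.40 in NB1691 and 4.03 and 5.02 in SKNBE2 (5.13 ± 1.09, adjusted p 0.0156; 0.162 on line means; 3 of 4 probe sets of that sign).

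Secreted growth factors and their binding proteins were called higher in 15 of 44 and lower in 3, against 12.8% and 12% of all genes. Their median was 0.83 (9 and 3 with the random block, 5 and 0 on line means). WNT5A, a non-canonical Wnt ligand, had 8.97 and 8.09 in SKNAS and 10.44 and 8.55 in SKNAS/shHIF1a, against 2.44 and 2.35 in NB1691 and 2.71 and 2.75 in SKNBE2 (6.45 ± 0.41, adjusted p 0.000125). WNT5B was lower (-1.15 ± 0.20), with no array above 4.75 and a call that ended without SKNAS (0.0727) or SKNAS/shHIF1a (0.0788). HGF, the ligand of the MET receptor, had 11.46 and 12.03 in SKNAS and 10.76 and 11.05 in SKNAS/shHIF1a, against 2.40 and 3.09 in NB1691 and 8.26 and 7.58 in SKNBE2 (5.99 ± 1.42). The HGF call ended without SKNAS (0.179) or SKNAS/shHIF1a (0.13). MET itself, named after its values were seen, had 4.08 and 3.5 in SKNAS and 3.28 and 3.28 in SKNAS/shHIF1a, against 6.63 and 8.27 in NB1691 and 3.20 and 4.20 in SKNBE2. It was not called. BMP7, a bone morphogenetic protein, was lower, with 4.08 and 4.75 in SKNAS and 6.05 and 7.24 in SKNAS/shHIF1a, against 10.90 and 11.33 in NB1691 and 7.72 and 8.20 in SKNBE2 (-4.01 ± 1.05). The BMP7 call ended without SKNAS (0.237), SKNAS/shHIF1a (0.0717) or NB1691 (0.0864). GAS6, the ligand of AXL, differed by -2.04 ± 0.26 (adjusted p 0.0021).

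Cytokines and chemokines had the highest median of all lists, 3.62. In limma 11 of 17 were called higher and 0 lower, against 12.8% and 12% of all genes. At an unadjusted p under 0.05, 16 were higher and 0 lower. Both the random block and line means left 6 called higher. Another 6 genes on the array, among them IL6, CXCL1 and CXCL5, lay below the filter in all lines, with no array above 3.41. CCL2 had 12.89 and 11.58 in SKNAS and 13.32 and 12.30 in SKNAS/shHIF1a, against 4.66 and 4.47 in NB1691 and 2.98 and 3.02 in SKNBE2 (adjusted p 7.93e-05). PTX3 had 12.72 and 11.89 in SKNAS and 12.84 and 11.50 in SKNAS/shHIF1a, against 3.26 and 4.71 in NB1691 and 2.79 and 2.79 in SKNBE2 (adjusted p 8.76e-05). IL1B, interleukin-1 beta, had 10.23 and 7.46 in SKNAS and 12.23 and 8.28 in SKNAS/shHIF1a, against 3.24 and 3.12 in NB1691 and 3.24 and 3.36 in SKNBE2 (6.31 ± 0.76, adjusted p 0.00181). CXCL8, the neutrophil chemokine interleukin-8, had 10.85 and 4.70 in SKNAS and 11.88 and 5.98 in SKNAS/shHIF1a, against 2.99 and 3.25 in NB1691 and 2.77 and 3.02 in SKNBE2 (5.34 ± 1.23). Its call ended without SKNAS (0.0754) or SKNAS/shHIF1a (0.118), and its promoter above holds an AP-1 match. The MYCN-high mean of CXCL8 was below the filter level (3.01), so it passed the filter through the SKNAS-derived arrays.

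The size of the group difference depended on treatment for part of these genes. The list's median difference was 5.59 under ciclopirox, against 1.98 under vehicle. For CXCL8 the difference was 8.48 under ciclopirox, against 2.20 under vehicle. A test of the difference in response, with the 4 line changes as values, called 5 genes (0.0344% of all genes; 1643 at an unadjusted p under 0.05). They were CXCL8 at 6.28 (adjusted p 0.0114), the chemokine CCL20 at 6.99 (0.0159), the hyaluronan-degrading CEMIP at 4.80 (0.0252), the chemokine CXCL11 at 4.44 (0.0252) and PTGS2, the cyclooxygenase COX-2, at 3.52 (0.0419), where the value is the change in SKNAS-derived lines minus that in MYCN-high lines. In the MYCN-high lines the 5 genes were near background under both treatments. With any 1 line left out limma called 0 genes, with 1207, 760, 1721 and 2667 at an unadjusted p under 0.05 without SKNAS, SKNAS/shHIF1a, NB1691 and SKNBE2.

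Of 40 intermediate filament, actin and contractile genes, 17 were called higher and 2 lower, against 12.8% and 12% of all genes. Their median was 1.0 (11 and 1 with the random block, 3 and 1 on line means). VIM, vimentin, was high in all lines, with 13.35 and 13.14 in SKNAS and 13.48 and 13.23 in SKNAS/shHIF1a, against 12.37 and 11.73 in NB1691 and 11.43 and 10.45 in SKNBE2 (1.80 ± 0.34). The VIM call ended without SKNAS (0.0933) or SKNAS/shHIF1a (0.0971). ANXA1 had 10.98 and 10.45 in SKNAS and 10.39 and 10.16 in SKNAS/shHIF1a, against 3.0 and 2.95 in NB1691 and 2.59 and 2.88 in SKNBE2 (adjusted p 5.16e-06), and S100A10, an annexin partner, was higher by 5.03 ± 0.69. The S100A10 call ended without SKNAS (0.052). LGALS1, galectin-1, was higher by 2.22 ± 0.24 (adjusted p 0.00111). TAGLN and MYL9, smooth muscle genes that mark contractile fibroblasts, did not reach the filter, with no array above 3.32, and CNN1, calponin of the same cells, differed by -1.80 ± 0.23, with no array above 5.43 (adjusted p 0.00226).

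Of 20 YAP and TEAD targets 9 were called higher and 1 lower, against 12.8% and 12% of all genes. Their median was 2.52 (7 and 1 with the random block, 6 and 0 on line means). CCN1, the matricellular CYR61, had 9.62 and 7.81 in SKNAS and 10.25 and 8.47 in SKNAS/shHIF1a, against 3.48 and 3.58 in NB1691 and 3.15 and 2.96 in SKNBE2 (5.74 ± 0.41, adjusted p 0.000202), and MYOF and CRIM1 were higher by 4.75 ± 0.21 and 4.71 ± 0.19. CCN2, the other classical target, named after its values were seen, differed by 1.11 ± 0.45. It was not called. Among 19 output genes of the RAS and MAPK pathway 12 were called higher and 0 lower in limma, against the same shares of all genes. At an unadjusted p under 0.05, 15 were higher and 2 lower. The median was 2.41 (8 called higher with the random block, 4 on line means). SPRY1, a feedback inhibitor of receptor kinases, had 10.59 and 11.31 in SKNAS and 10.01 and 11.19 in SKNAS/shHIF1a, against 3.77 and 3.67 in NB1691 and 4.04 and 3.68 in SKNBE2 (6.99 ± 0.28, adjusted p 1.4e-05). PHLDA1, at 12.47 and 11.98 in SKNAS and 12.33 and 12.05 in SKNAS/shHIF1a, against 5.32 and 5.74 in NB1691 and 9.74 and 9.62 in SKNBE2 (4.60 ± 1.12), and IER3 (4.58 ± 1.31) were less even. The calls ended without SKNAS (0.17 and 0.212) or SKNAS/shHIF1a (0.159 and 0.221).

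In the TGF-beta and BMP list 8 of 26 were called higher and 3 lower, against 12.8% and 12% of all genes. The median was 0.46 (5 and 3 with the random block, 3 and 1 on line means). TGFBR2, the type II TGF-beta receptor, had 8.51 and 7.81 in SKNAS and 8.48 and 6.76 in SKNAS/shHIF1a, against 3.11 and 3.32 in NB1691 and 3.67 and 4.36 in SKNBE2 (4.27 ± 0.45, adjusted p 0.00103). SMAD3, its mediator, was higher by 2.90 ± 0.46. The SMAD3 call ended without SKNAS (0.074), and SMAD1, a BMP mediator, by 1.5 ± 0.18. SMAD9 differed by -2.19 ± 0.25, and the activin receptor ACVR1B by -1.57 ± 0.15.

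Antigen presentation by MHC class I was called higher in 15 of 21 genes and lower in 0 in limma, against 12.8% and 12% of all genes. At an unadjusted p under 0.05, 17 were higher and 0 lower. The median was 1.96 (11 called higher with the random block, 8 on line means). PSMB8, a catalytic subunit of the immunoproteasome, had 8.83 and 8.69 in SKNAS and 8.54 and 8.19 in SKNAS/shHIF1a, against 2.47 and 2.73 in NB1691 and 2.84 and 2.61 in SKNBE2. PSMB9, another such subunit, had 9.12 and 8.58 in SKNAS and 9.03 and 8.11 in SKNAS/shHIF1a, against 3.05 and 3.10 in NB1691 and 3.29 and 3.14 in SKNBE2. The differences were 5.90 ± 0.18 (adjusted p 5.67e-06) and 5.57 ± 0.20 (adjusted p 9.04e-06), with every MYCN-high array below its array's median. TAP1, the peptide transporter, had 8.46 and 7.27 in SKNAS and 8.73 and 6.37 in SKNAS/shHIF1a, against 2.94 and 2.98 in NB1691 and 3.29 and 2.86 in SKNBE2 (4.69 ± 0.37, adjusted p 0.000324). HLA-E, a class I molecule read by natural killer cells, had 8.22 and 7.17 in SKNAS and 8.14 and 6.75 in SKNAS/shHIF1a, against 5.53 and 4.82 in NB1691 and 4.83 and 4.75 in SKNBE2 (2.59 ± 0.25, adjusted p 0.000698). HLA-B had 11.17 and 9.14 in SKNAS and 11.46 and 8.43 in SKNAS/shHIF1a, against 10.05 and 7.79 in NB1691 and 6.88 and 6.72 in SKNBE2. It was not called (2.19 ± 0.71, adjusted p 0.0616). The NB1691 ciclopirox array lay inside the SKNAS-derived range. B2M, the invariant light chain, was high everywhere, with 13.01 and 12.85 in SKNAS and 13.12 and 12.75 in SKNAS/shHIF1a, against 12.44 and 12.26 in NB1691 and 12.55 and 12.55 in SKNBE2 (0.48 ± 0.13). The B2M call ended without SKNAS (0.222), SKNAS/shHIF1a (0.194) or NB1691 (0.0784). PSMB8, PSMB9 and TAP1 had MYCN-high means below the filter level (2.66, 3.14 and 3.02) and passed the filter through the SKNAS-derived arrays. Class I genes share sequence, and some of their probe sets can bind more than 1 of them.

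Innate sensing and interferon genes were called higher in 27 of 37 and lower in 0 in limma, against 12.8% and 12% of all genes. At an unadjusted p under 0.05, 30 were higher and 1 lower. The median was 1.83 (19 called higher with the random block, 13 on line means). IFITM3 had 11.81 and 11.78 in SKNAS and 10.94 and 11.15 in SKNAS/shHIF1a, against 3.20 and 3.38 in NB1691 and 3.17 and 2.89 in SKNBE2. IFITM2 had 10.14 and 10.80 in SKNAS and 8.67 and 9.68 in SKNAS/shHIF1a, against 2.92 and 3.21 in NB1691 and 2.93 and 2.98 in SKNBE2. The probe sets of both can bind related transcripts. TLR3, the endosomal sensor of double-stranded RNA, had 7.22 and 6.81 in SKNAS and 7.5 and 6.35 in SKNAS/shHIF1a, against 2.51 and 2.53 in NB1691 and 2.57 and 2.57 in SKNBE2 (4.42 ± 0.21, adjusted p 3.26e-05), and IFIT3, an interferon-induced gene, was higher by 5.47 ± 0.40. IFI16, a nuclear DNA sensor, had 10.58 and 11.15 in SKNAS and 11.13 and 11.95 in SKNAS/shHIF1a, against 2.70 and 2.53 in NB1691 and 7.21 and 6.89 in SKNBE2 (6.37 ± 1.22). The IFI16 call ended without SKNAS (0.0931) or SKNAS/shHIF1a (0.105). IFITM3, IFITM2, TLR3 and IFIT3 had MYCN-high means below the filter level (3.16, 3.01, 2.54 and 3.08). They passed the filter through the SKNAS-derived arrays. CASP8, the initiator caspase of death receptors, named after its values were seen, had 9.16 and 9.07 in SKNAS and 8.90 and 8.83 in SKNAS/shHIF1a, against 3.58 and 3.42 in NB1691 and 3.67 and 3.92 in SKNBE2 (5.34 ± 0.16, adjusted p 5.67e-06). MX1 and OAS1, other interferon-induced genes also named afterwards, differed by -0.04 ± 0.14 and 0.34 ± 0.42 and were not called.

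Of 13 genes of the MYC family and its partners tested, 1 was called higher and 2 lower, against 12.8% and 12% of all genes, and 10 were not called. With the random block 1 was higher and 2 lower, and on line means 1 and 1. The called genes were MYC, MYCN and MYCNOS. The values of MYC and MYCN above stand as a description because the labels give each line a Myc status. That status puts SKNAS/shHIF1a with NB1691 and SKNBE2, unlike the groups used here. MYCNOS is antisense to MYCN and had 3.64 and 3.66 in SKNAS and 4.21 and 4.81 in SKNAS/shHIF1a, against 7.09 and 7.64 in NB1691 and 9.26 and 9.90 in SKNBE2 (-4.39 ± 0.65). The MYCNOS call ended without SKNAS (0.0658). The list of neighbours of MYCN on the short arm of chromosome 2 had 13 genes tested, MYCN and MYCNOS included. Of these 6 were called lower and 0 higher in limma, against 12% and 12.8% of all genes. At an unadjusted p under 0.05, 6 were lower and 0 higher. The random block left 3 called lower and line means 1. DDX1, an RNA helicase often amplified along with MYCN, had 10.59 and 11.14 in SKNAS and 10.71 and 11.21 in SKNAS/shHIF1a, against 13.66 and 13.58 in NB1691 and 11.80 and 11.97 in SKNBE2 (-1.84 ± 0.49). It was higher in NB1691 than in SKNBE2. The DDX1 call ended without SKNAS (0.203) or SKNAS/shHIF1a (0.177). NBAS, another neighbour, differed by -0.71 ± 0.21. The NBAS call ended without SKNAS (0.298), SKNAS/shHIF1a (0.136) or NB1691 (0.0579). ODC1, the ornithine decarboxylase and a MYC target, had 11.29 and 11.02 in SKNAS and 11.46 and 11.43 in SKNAS/shHIF1a, against 10.80 and 11.22 in NB1691 and 12.24 and 12.19 in SKNBE2. It was not called. GREB1 differed by -3.24 ± 0.63. The GREB1 call ended without SKNAS (0.0915) or SKNAS/shHIF1a (0.107).

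Of 43 targets of MYC and MYCN in ribosome and nucleotide synthesis, 3 were called higher and 7 lower, against 12.8% and 12% of all genes, with a median difference of -0.19 (1 and 1 with the random block, 0 and 0 on line means in limma, 5 and 11 at an unadjusted p under 0.05 in the array fit). FBL, the nucleolar fibrillarin, had 11.52 and 11.46 in SKNAS and 11.13 and 11.32 in SKNAS/shHIF1a, against 12.38 and 12.17 in NB1691 and 12.12 and 12.08 in SKNBE2 (-0.83 ± 0.15). SHMT2, a mitochondrial one-carbon enzyme, had 9.98 and 9.84 in SKNAS and 9.96 and 10.12 in SKNAS/shHIF1a, against 11.37 and 10.19 in NB1691 and 12.19 and 11.30 in SKNBE2 (-1.29 ± 0.35). These calls ended without SKNAS (0.0574 and 0.216) or SKNAS/shHIF1a (0.0872 and 0.149), and that of SHMT2 also without SKNBE2 (0.0915). WDR43, a ribosome biogenesis factor, differed by -1.98 ± 0.51. The WDR43 call ended without SKNAS (0.172) or SKNAS/shHIF1a (0.186).

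Of 11 oncofetal genes 3 were called higher and 4 lower, against 12.8% and 12% of all genes (2 and 4 with the random block, 2 and 2 on line means). IGF2BP2, an RNA-binding protein, had 8.32 and 8.59 in SKNAS and 9.08 and 9.03 in SKNAS/shHIF1a, against 3.24 and 3.29 in NB1691 and 3.23 and 3.41 in SKNBE2 (5.46 ± 0.20, adjusted p 1.01e-05). IGF2BP1 had 4.13 and 4.25 in SKNAS and 4.35 and 4.57 in SKNAS/shHIF1a, against 6.78 and 6.90 in NB1691 and 6.89 and 7.35 in SKNBE2 (-2.66 ± 0.16, adjusted p 9.46e-05). The 2 paralogues thus differed in opposite directions. H19, an imprinted maternally expressed RNA, was higher by 4.61 ± 1.03. The H19 call ended without SKNAS (0.141) or SKNAS/shHIF1a (0.127). MEG3, another imprinted RNA and a neighbour of DLK1, differed by -2.51 ± 0.36 (adjusted p 0.00359).

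Markers of neural crest and glial cells and of other cell types were looked at in the same way. Of 19 neural crest, Schwann and glial genes on the array 10 passed the filter, and 4 were called higher and 2 lower, against 12.8% and 12% of all genes (4 and 1 with the random block, 1 and 0 on line means). SOX10, S100B and MBP, which define Schwann cells, were among the 9 below the filter, with no value above 3.95. MSX1, a homeobox factor of neural crest, had 9.64 and 9.63 in SKNAS and 10.25 and 10.20 in SKNAS/shHIF1a, against 3.81 and 3.01 in NB1691 and 6.40 and 5.11 in SKNBE2 (5.35 ± 0.69, adjusted p 0.00225). MSX2 had 3.66 and 4.62 in SKNAS and 3.46 and 3.92 in SKNAS/shHIF1a, against 7.30 and 5.79 in NB1691 and 8.65 and 7.87 in SKNBE2 (-3.49 ± 0.61). These paralogues also differed in opposite directions. The MSX2 call ended without SKNAS (0.059) or SKNAS/shHIF1a (0.0837). NES, nestin, was higher by 2.02 ± 0.17 (adjusted p 0.000415). SOX9 was higher by 2.96 ± 0.53. The SOX9 call ended without SKNAS (0.0821) or SKNAS/shHIF1a (0.0818).

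Among markers of cells that a pure line should not hold, 7 of 10 lymphoid and myeloid, 7 of 14 epithelial and 3 of 9 endothelial genes on the array lay below the filter, CD3E, CDH1 and CDH5 among them. The mean level over all 10 lymphoid and myeloid markers was 3.46 to 3.94 in SKNAS-derived arrays and 3.25 to 3.40 in MYCN-high arrays. For the 14 epithelial markers it was 3.19 to 4.0 in SKNAS-derived arrays and 3.0 to 3.56 in MYCN-high arrays. For the 9 endothelial markers it was 3.17 to 4.0 and 2.96 to 3.39. Of those tested, 1 of 3 lymphoid and myeloid genes was called higher and 1 lower, 1 of 7 epithelial genes higher and 0 lower, and 0 of 6 endothelial genes either way in limma (1 and 1, 2 and 1, and 2 and 0 at an unadjusted p under 0.05). Over all genes 12.8% were called higher and 12% lower. The list medians were -0.12, 0.67 and 0.49. The lowest members were CORO1A, a leukocyte actin-binding protein, at -1.09 ± 0.32 (adjusted p 0.0459, overlapping groups, not called with the random block), the keratin KRT5 at -2.07 ± 1.12 and the clotting protein VWF at -1.38 ± 0.68, and the last 2 were not called. The part of these cell types in the group differences was not tested. PTPRC, the leukocyte antigen CD45, had 10.42 and 11.53 in SKNAS and 6.34 and 9.57 in SKNAS/shHIF1a, against 3.03 and 3.12 in NB1691 and 3.29 and 3.22 in SKNBE2 (6.30 ± 0.96, adjusted p 0.00444). CD3E, CD14 and LYZ lay below the filter. KRT18, a simple epithelial keratin, had 10.87 and 10.34 in SKNAS and 7.21 and 6.69 in SKNAS/shHIF1a, against 3.08 and 3.38 in NB1691 and 3.14 and 3.08 in SKNBE2 (5.61 ± 0.99, adjusted p 0.00799). EPCAM was not called. TEK, an endothelial receptor, had 3.21 and 3.63 in SKNAS and 6.97 and 6.78 in SKNAS/shHIF1a, against 2.74 to 2.94 in the MYCN-high arrays, and was not called. EMCN, an endothelial sialomucin, had 3.47 and 3.78 in SKNAS and 3.77 and 6.74 in SKNAS/shHIF1a, against 2.67 to 2.97 in the MYCN-high arrays, and was not called.

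Histone demethylases are the family of KDM4B (JMJD2B), the gene named in the series title. Of 14 tested, 4 were called lower and 0 higher in limma, against 12% and 12.8% of all genes (6 and 2 at an unadjusted p under 0.05). The list's median was -0.28 (1 lower with the random block, 0 on line means). KDM4B had 9.02 and 8.36 in SKNAS and 8.37 and 8.28 in SKNAS/shHIF1a, against 9.0 and 9.10 in NB1691 and 9.95 and 9.29 in SKNBE2. It was not called (-0.83 ± 0.25, adjusted p 0.0504, 4 of 5 probe sets of that sign). KDM4C had 5.97 and 5.31 in SKNAS and 5.03 and 5.18 in SKNAS/shHIF1a, against 7.47 and 7.37 in NB1691 and 7.58 and 6.95 in SKNBE2 (-1.97 ± 0.23, adjusted p 0.00148). In the p53 pathway 1 of 15 genes was called higher and 2 lower, against 12.8% and 12% of all genes (0 and 1 with the random block, 0 and 0 on line means in limma, 2 and 5 at an unadjusted p under 0.05 in the array fit). SESN1, a stress-induced sestrin, differed by -2.67 ± 0.47. The SESN1 call ended without SKNAS (0.0871) or SKNAS/shHIF1a (0.0646).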

How the data were processed

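RNA of 8 samples was measured on single-colour Affymetrix arrays. The deposited table holds log2 signals that the authors normalised by RMA, per the labels and the submitters' processing notes, with the version not given in the sources used here. Of 54715 probe sets, 102 are controls, 40914 name 1 gene symbol, 864 several and 12835 none here, so they stay unnamed. Symbols were updated through RefSeq gene IDs. Each gene took its probe set with the highest mean over all arrays. Genes whose mean lay under the 40th percentile of the means of all 54715 probe sets (3.2082) were left out, leaving 14517 of 19774. Some probe sets can bind related transcripts. For some named genes all probe sets had the same sign but only part was called, 1 of 4 for FOSL2 and 1 of 2 for DBH, DLK1, SLC18A2 and S100A10. The number of arrays limits the precision.

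Differences were fitted with limma 3.58.1 (R 4.3.3, statmod 1.5.0) as group plus treatment, with 5 residual and 1.99 prior degrees of freedom and Benjamini-Hochberg adjustment over all genes tested. For the random block, the consensus correlation of arrays of a line was 0.532. A run of the fit on simulated data used independent errors for all arrays and no effect of line. How the fit behaves under such an effect was not tested. Promoters came from RefSeq, GRCh38.p14.

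The members, the 26 gene lists (694 genes, of which 662 were on the array and 603 tested) and the naming rule were chosen with earlier results of these data known. The rule took called genes whose 2 groups of arrays did not overlap, with no minimum difference. It named those with the largest differences, up to 15 in each direction over all genes and up to 4 in each direction in a list. Where no gene of a list qualified, the 2 largest differences were named. A fixed set of marker genes was added, and in each group the 5 qualifying listed genes whose lines differed most. Named after values were seen were SCG2, TUBB3, NPY, COL1A1, COL1A2, MET, CCN2, CASP8, MX1, OAS1, EPCAM, ZEB1, CORO1A, KRT5, VWF, MDM2, the genes listed as below the filter, the 5 genes of the treatment test and the gene families of the last section. Of the fixed set, 5 genes are not analysed here.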

Additional observations from a re-analysis of the deposited data

Results flagged for a closer look

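Single arrays stood apart from the other 3 of their group in 14 of the 336 gene and group combinations examined, by the ratio of the gap to the group's range, and chance gives about 1 in 20. In 10 of the 14 the whole range was under 1 log2 unit. In the SKNAS/shHIF1a vehicle array EMCN was 6.74 (3.47 to 3.78 in the other SKNAS-derived arrays), MEG3 5.78 (7.38 to 7.58), MYT1 3.98 (3.0 to 3.10), LAMA4 3.29 (2.77 to 2.85) and PDGFRA 11.14 (11.50 to 11.54). In the SKNAS/shHIF1a ciclopirox array CFI was 10.27 (10.87 to 10.92) and KCNK3 3.11 (2.77 to 2.83). In the SKNAS ciclopirox array KDM4B was 9.02 (8.28 to 8.37).

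In the NB1691 ciclopirox array ROBO2 was 6.09 (7.43 to 7.56 in the other MYCN-high arrays), ZNF536 8.48 (7.48 to 7.60) and HLA-E 5.53 (4.75 to 4.83). In the NB1691 vehicle array DCLK1 was 7.81 (7.40 to 7.44). In SKNBE2, AXL was 4.43 in the ciclopirox array (2.69 to 2.94) and TWIST1 11.55 in the vehicle array (11.37 to 11.40).

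The response of CXCL8 to ciclopirox differed between the groups, by 6.28 log2 units (SKNAS-derived minus MYCN-high; limma on 4 line changes, adjusted p 0.0114), with the increase present in both SKNAS-derived lines.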

How the results depend on the processing

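Of 152 called genes named by the rule, 121 were called with the line as a random block, 77 on line means, 83 on ciclopirox arrays alone, 57 on vehicle arrays alone and 152 after median centring or quantile normalization. Genes called either way, higher and lower numbered 1775, 954 and 821 with the random block, 534, 349 and 185 on line means, 1311, 755 and 556 with the SKNAS lines averaged, 665, 444 and 221 on ciclopirox arrays, 243, 153 and 90 on vehicle arrays, 1174, 668 and 506 without SKNAS, 1420, 804 and 616 without SKNAS/shHIF1a, and 1626, 871 and 755 at an adjusted p under 0.01. Without SKNBE2, 2689 were lower. Clear genes numbered 534, 1274, 665, 243, 1163, 1379 and 1432 in the same order from line means on, and 3531 without SKNBE2. Noradrenergic genes called lower numbered 18 on line means, 17 on ciclopirox arrays, 14 on vehicle arrays, 34 without SKNAS/shHIF1a and 34 at the stricter threshold, and mesenchymal genes called higher 42, 49 and 17 in the first 3 of these. Leaving out each array gave 2291 to 3417 genes, 1222 to 1722 higher and 1069 to 1695 lower. The treatment test called 0 genes without each line and 9 with probe sets averaged per gene. Directions turned for DCLK1 (-0.23 with probe-set means and with every probe set), RUNX1 (0.29 and 0.49 in these), HIF1A (0.08 without SKNAS/shHIF1a), TBX2 (-0.07 on ciclopirox arrays), TEAD1 (-0.15 without SKNBE2, -0.06 to 0.25 with single arrays left out) and ODC1 (0.29 without SKNBE2). The cause was not tested, except that fewer arrays or lines enter several of these fits. No paired analysis was possible because no line is in both groups and replicate numbers follow accession order alone. The 2 arrays of a line were paired by line only in the treatment test and in the random block.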

Other observations

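Calls were counted by chromosome after the data were seen, with 12.8% of all genes called higher and 12% lower. Over the autosomes the share called higher ran between 5.0% (chromosome 22) and 25.6% (chromosome 18), and the share called lower between 3.4% (chromosome 18) and 22% (chromosome 6), and no test of these shares was made. On chromosome 18, 52 of 203 genes tested were called higher and 7 lower, with a median difference of 0.49. The chromosome's median deviation from the gene means was 0.22 in SKNAS and 0.25 in SKNAS/shHIF1a, against 0.01 in NB1691 and -0.47 in SKNBE2. On chromosome 1, 311 of 1463 were higher and 90 lower. On chromosome 6, 65 of 749 were higher and 165 lower, on chromosome 11, 139 of 846 were higher and 157 lower, and on chromosome 22, 18 of 360 were higher and 57 lower.

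Some gene families were picked after their values were seen, so their counts are descriptions, to be read beside the same 12.8% and 12% of all genes. Of 8 annexins, calcium-dependent membrane-binding proteins, 6 were called higher and 0 lower in limma. Of 5 metallothioneins, metal-binding proteins, 4 were higher and 0 lower, and of 9 cancer-testis CTAG and MAGE genes 4 were higher and 0 lower. Of 20 glutamate and GABA receptor genes 4 were lower and 0 higher, and of 24 sodium and calcium channel genes 5 were higher and 5 lower. No departure from those shares is read from the last 2 families. MDM2, the ligase that degrades p53, had 8.29 to 8.72 in the SKNAS-derived arrays, against 12.84 and 12.61 in NB1691 and 8.85 and 8.93 in SKNBE2.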
